A study of Mus musculus with 6 samples.

Results

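Splenic CD8+ T cells that had met their antigen and then grown with interleukin-12 (IL-12) were compared with naive cells, on 4 of the study's 6 Affymetrix arrays. All cells came from female C57BL/6 mice carrying the Pmel-1 T cell receptor transgene, so most of their CD8+ T cells bear a receptor for gp100, a melanocyte protein that melanomas also display. The 2 naive samples were fresh spleen cells sorted for CD8 and Thy1.1. The 2 IL-12 samples had been given gp100 for 4 days, were stimulated with IL-12 for 6 days, and had no sort named in the labels. The other 2 arrays, treated alike but with IL-2 in place of IL-12, are set beside the results for comparison. IL-12 primed cells therefore differ from naive cells by antigen, cytokine and time in culture together, and no label tells whether both samples of a group were independent animals or cultures, so each p-value rests on a spread between arrays that may be purely technical.

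A naive CD8+ T cell is small and resting; it recirculates through lymph nodes, guided by CCR7, and is kept alive by IL-7. Antigen and costimulation drive it into rapid division, and a cytokine such as IL-12, which dendritic cells secrete, is known as the third signal that settles which effector functions the daughters acquire. IL-12 binds a receptor made of IL-12Rβ1 and IL-12Rβ2, activates the kinases TYK2 and JAK2 and the transcription factor STAT4, and is known to raise T-bet and interferon-γ. IL-2 acts through CD25, CD122 and the common γ chain on STAT5 and is the classical T cell growth factor.

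Values are log2 RMA values, in which a difference of 1 is a 2-fold change. The labelled cell type was borne out by its markers: Cd8a read 12.61 and 12.66 on the naive arrays and 12.17 and 12.12 on the IL-12 arrays, the 9 measured T cell identity genes lay between 10.09 and 13.31 on every array, and Cd4 lay between 6.19 and 6.61. Olfactory receptors are not used by T cells. The values of their 1035 probe sets had a 95th percentile of 6.61 over all 6 arrays. The Cd4 range is at or under this level. That level is called the off level here. Across the 11147 genes tested, the naive arrays correlated at 0.986 and the IL-12 arrays at 0.992, and the arrays of a group lay over 1 log2 unit apart for 17 genes in naive and 20 genes in IL-12 cells.

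Naive and IL-12 primed cells differed in 6454 of 11147 tested genes (57.9%). By limma with Benjamini-Hochberg adjusted p under 0.05, 3482 genes (31.2%) were higher and 2972 genes (26.7%) lower in IL-12 than in naive cells and 4693 were not called. The shares of 31.2% and 26.7% are the background for every list count that follows. The lists were chosen with earlier results of these data known, so these counts describe the lists and are no test of them. Between the cytokines limma called 9.82% of tested genes higher and 11% lower with IL-12 than with IL-2, the background for counts against IL-2. Large changes leaned upward. At least 2-fold, 1168 genes (10.5%) rose and 754 genes (6.76%) fell; at least 8-fold, 165 rose and 34 fell; and at least 16-fold, 62 rose and 10 fell. Centring every array on its median moved the median difference of all genes from 0.04 to 0.16 and the share of calls that were higher from 54.0% to 64.0%.

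**Figure D1:**
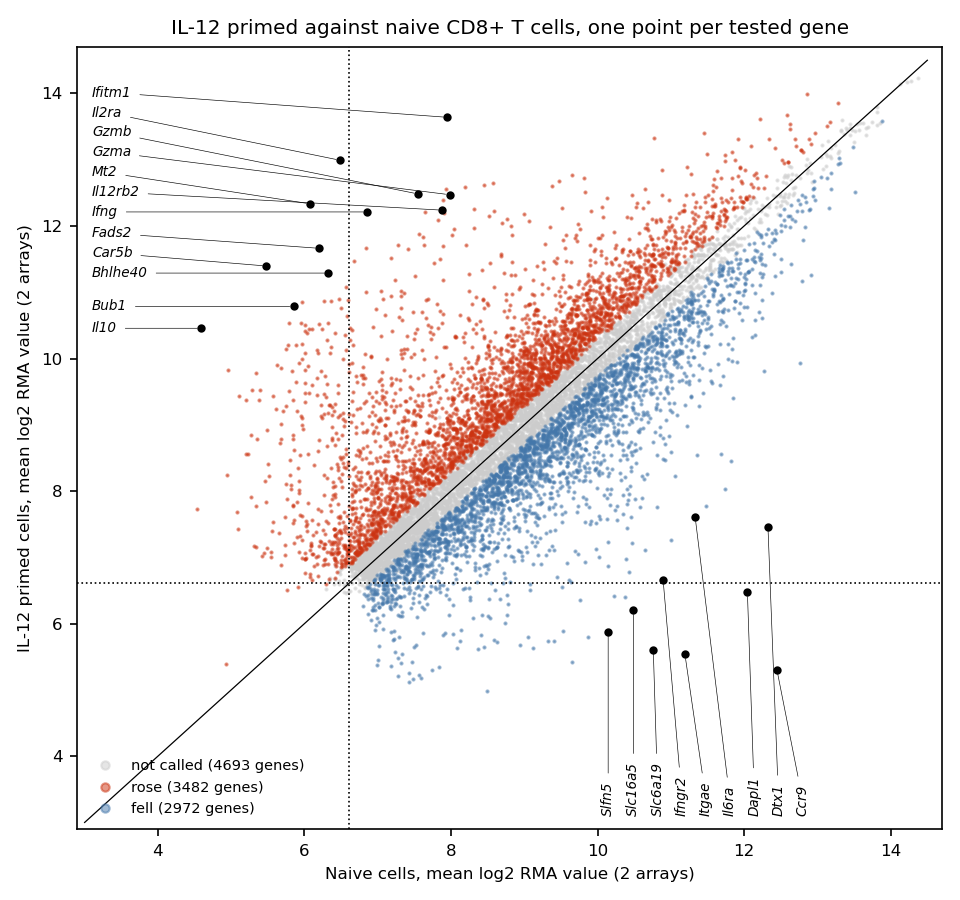
Mean log2 RMA value of each tested gene in naive cells (horizontal axis, 2 arrays) and IL-12 primed cells (vertical axis, 2 arrays), coloured by the limma call, with the off level of 6.61 as dotted lines and equality as a solid line. Of the 3482 genes that rose 165 lie at least 8-fold above the line, and of the 2972 that fell 34 lie at least 8-fold below it; Ccr9 has the largest fall.

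The gene that rose most was Il2ra, which encodes CD25, the chain that gives the IL-2 receptor its high affinity. Its probe set, 10469278, read 6.52 and 6.45 on the naive arrays, under the off level, and 13.03 and 12.95 on the IL-12 arrays, at least 83.4-fold higher (measured log2 difference 6.51 ± 0.11, SE; limma adjusted p = 1.2e-08). It was a further 1.37 higher than in IL-2 primed cells (adjusted p = 0.00012 by limma), which read 11.73 and 11.51. Mt2, a metallothionein that binds zinc and copper, went from 5.85 and 6.31 to 12.15 and 12.52, at least 52.9-fold. Car5b, a mitochondrial carbonic anhydrase, went from 5.57 and 5.39 to 11.29 and 11.50, at least 27.6-fold. Fads2, a desaturase of polyunsaturated fatty acids, went from 6.10 and 6.30 to 11.80 and 11.53, at least 33.2-fold. In each of these genes both naive arrays were under the off level and both IL-12 arrays more than 4 log2 units above it.

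In all, 148 genes (1.33% of those tested) were switched on, meaning that they passed the test with both naive arrays at or under the off level and both IL-12 arrays at least 1 unit above it. Of these, 30 belonged to the lists of mitosis, DNA replication and cell cycle entry genes, among them Bub1, a spindle checkpoint kinase, and Hmmr, a spindle protein. The count leans on the off level: it was 95 with the 90th percentile of olfactory receptors as the off level, 239 with the 99th, and 3 with the highest value of 3 Y-linked genes, which these female cells lack. In IL-2 primed cells 14 of the 148 also lay at or under the off level on both arrays, and 133 lay above it on both. Directly compared, 62 of the 148 were higher in IL-12 than in IL-2 cells by limma and 3 were lower, against 9.82% and 11% of all tested genes, though genes picked for high values on the IL-12 arrays were bound to lean that way.

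Several switched-on genes were far lower under IL-2. Il10, a cytokine that restrains inflammation, read 4.52 and 4.67 in naive cells, 5.18 and 5.46 in IL-2 cells and 10.45 and 10.46 in IL-12 cells. It was at least 14.4-fold higher than in naive cells (limma adjusted p = 2.8e-08) and higher by the same bound than in IL-2 cells (limma adjusted p = 3.5e-07). P2rx3, an ATP-gated cation channel best known from sensory neurons, read 5.80 and 5.78, 5.86 and 5.98 and 10.76 and 10.31 in the same order, and was at least 15.2-fold higher than in IL-2 cells. Prnp, the prion protein, read 5.67 and 6.27, 7.62 and 7.38 and 10.996 and 10.71. Esm1, a secreted proteoglycan, Gpx8 and Cysltr2, a leukotriene receptor, named after their values were seen, followed the same order: Esm1 read 6.18 and 6.02, 6.85 and 6.62 and 10.09 and 10.81, and Cysltr2 5.75 and 5.93, 5.94 and 6.01 and 8.97 and 8.72. For Il10, P2rx3, Cysltr2 and Gpx8 the naive and the IL-2 arrays were all under the off level, whereas Esm1 and Prnp were already above it on IL-2 arrays.

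**Figure D2:**
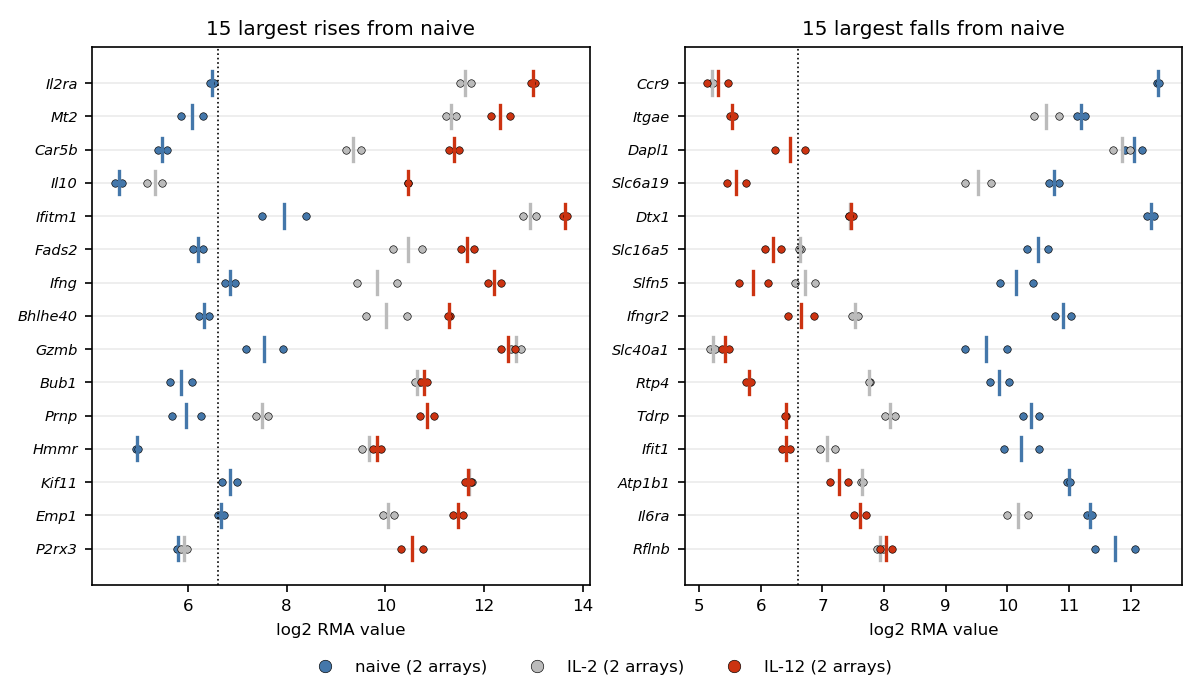
Log2 RMA value on each array (points) with the group mean (bar) for the 15 genes with the largest rise and the 15 with the largest fall from naive to IL-12 cells; the dotted line is the off level of 6.61. Il10 and P2rx3 stay low under IL-2, Gzmb and Hmmr do not, and Itgae and Dapl1 fall under IL-12 while the IL-2 arrays stay above 10.

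The receptors through which IL-12 and its partner IL-18 act rose. Of 12 tested genes of these pathways, 8 rose and 2 fell, with a median difference of 1.58. Il12rb2, the chain that recruits STAT4, read 7.98 and 7.79 in naive and 12.30 and 12.17 in IL-12 cells, a rise of 20.5-fold (log2 4.36 ± 0.13, SE; limma adjusted p = 4.1e-08), and IL-2 cells lay between at 10.64 and 10.38. Its partner Il12rb1 rose 2.75-fold. Il18r1 and Il18rap, both chains of the IL-18 receptor, rose 4.89-fold and 5.51-fold, from 9.64 and 9.51 to 11.74 and 11.98 and from 8.57 and 8.31 to 10.75 and 11.06. Gadd45g, a stress-induced activator of p38 signalling that feeds interferon-γ production, rose 16.7-fold, from 6.51 and 6.65 to 10.89 and 10.40. Stat4 itself was not called against naive cells (11.94 and 11.86 against 11.74 and 11.47). The kinases went the other way by little: Jak2 fell 1.34-fold and Tyk2 1.31-fold, and Tyk2 was not called without naive replicate 1 (log2 -0.28), without IL-12 replicate 2 (log2 -0.30) or with median centring (log2 -0.27). Each of the 8 genes that rose was also higher than in IL-2 cells by limma, as were 9.82% of all tested genes.

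Among the IL-2 family receptors and their signalling genes, 7 of 17 rose and 7 fell. That is 41.2% each way, against 31.2% and 26.7% of all tested genes. Il2rb, the shared signalling chain CD122, rose 1.497-fold, and Pim1 and Pim2, kinases that promote growth and survival, rose 4.003-fold and 3.30-fold. Socs2, a feedback inhibitor, rose 6.28-fold, from 6.37 and 6.69 to 8.89 and 9.48, yet stayed under IL-2 cells at 10.49 and 10.58 (difference -1.35, limma adjusted p = 0.0017). Il4ra, the IL-4 receptor, fell 2.29-fold, and Il7r, the receptor for the survival factor IL-7, fell 2.61-fold from 12.31 and 12.44 to 11.06 and 10.92.

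Interferon-γ and granzyme genes rose. Ifng, the hallmark cytokine of type 1 immunity, read 6.96 and 6.76 in naive, 10.25 and 9.43 in IL-2 and 12.35 and 12.08 in IL-12 cells, a rise of 40.9-fold (log2 5.36 ± 0.23, SE; limma adjusted p = 2.9e-07) that exceeded IL-2 by 2.37 (limma adjusted p = 0.00027). Csf1, a growth factor of macrophages, rose 11.6-fold. Of 11 tested effector cytokines 4 rose and 3 fell, near the 31.2% and 26.7% of all tested genes, and those that fell included Ltb and Lta, the lymphotoxins, at -0.82 and -0.65. Of 19 cytotoxic molecules 11 rose and 1 fell. Gzmb, granzyme B, rose 30.6-fold from 7.93 and 7.17 to 12.35 and 12.62, and its difference from IL-2 cells at 12.76 and 12.54 was -0.17 (limma adjusted p = 0.64). Gzma, granzyme A, rose 22.5-fold from 8.74 and 7.23 to 12.35 and 12.60; here the naive arrays lay over 1 unit apart, and IL-12 exceeded IL-2 by 2.44. Fasl, the ligand of the death receptor Fas, was switched on, at 6.59 and 6.52 against 8.84 and 9.28. Prf1, perforin, which opens target membranes, was not called against naive cells (9.97 and 10.29 against 10.02 and 9.82), whereas it exceeded IL-2 cells by 1.27 (limma adjusted p = 0.00050). Gzmm, granzyme M, fell 1.64-fold.

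Chemokine genes split. Ccl3, an inflammatory chemokine, rose 8.61-fold (7.22 and 7.98 to 11.31 and 10.11), and Cxcl10, an interferon-γ-induced ligand of CXCR3, was switched on at 6.36 and 6.47 against 8.18 and 7.71. Ccl5 fell 3.06-fold from 12.79 and 12.79 to 11.01 and 11.34, and Xcl1, a ligand for cross-presenting dendritic cells, fell 2.12-fold. Cxcl9 moved opposite to Cxcl10, from 7.81 and 7.52 to 6.35 and 6.48, under the off level (limma adjusted p = 4.1e-05).

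Transcription factors of effector differentiation mostly rose: 17 of 26 did, 5 fell, and the median difference was 0.89. Tbx21, which encodes T-bet, rose 4.22-fold, from 9.13 and 9.09 to 11.17 and 11.21 (limma adjusted p = 4.8e-07), and lay 1.15 above IL-2 cells. Eomes, its relative and a factor tied to memory, moved the other way, from 10.26 and 10.07 to 7.81 and 8.11, a 4.62-fold fall. Prdm1, Blimp-1, a driver of terminal differentiation, rose 4.54-fold. Irf4, which scales with antigen signal strength, rose 5.54-fold. Bhlhe40, a repressor needed for cytokine production in T cells, was switched on, at 6.43 and 6.22 against 11.31 and 11.27. Irf8 rose 3.004-fold in IL-12 cells (8.66 and 8.86 to 10.43 and 10.26) while IL-2 cells lay under naive cells at 7.94 and 7.90; Irf8 is also a gene of B and dendritic cells; in bulk RNA, fewer cells of a type and less RNA per cell cannot be told apart. The summed linear signal of 14 B cell markers was 6646 to 7029 in naive, 1818 to 1852 in IL-2 and 3239 to 3241 in IL-12 cells, lower in IL-12 than in naive cells but higher than in IL-2 cells, and its part in the difference between the cytokines was not tested. Tox, a factor known from T cell exhaustion, fell 6.43-fold, from 10.34 and 10.35 to 7.81 and 7.51.

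Receptors that tune the effector cell changed in both directions. Of 13 inhibitory receptors and ectoenzymes 7 rose and 3 fell (53.8% and 23.1%, against 31.2% and 26.7% of all tested genes). Ctla4, a competitor for costimulatory ligands, rose 12.8-fold, Tigit 5.93-fold, Pdcd1, which encodes PD-1, 5.64-fold and Lag3 5.03-fold. Against IL-2 cells Ctla4 was lower (-0.52) and Tigit higher (0.51) by limma, while Pdcd1 and Lag3 were not called. Of 19 costimulatory receptors and ligands 9 rose and 7 fell (47.4% and 36.8%, against the same shares). Icos rose 4.18-fold, Tnfrsf9, known as 4-1BB, 5.78-fold, and Tnfrsf8, known as CD30, was switched on at 6.45 and 6.39 against 8.64 and 8.75. Cd27 fell 1.76-fold and Cd28 rose 1.99-fold. Among killer cell lectin-like receptors 3 of 8 rose and 2 fell, near the shares of all genes: Klrg1, a mark of short-lived effectors, rose at least 1.55-fold, from 6.26 and 6.18, under the off level, to 6.98 and 7.49, while Klrd1, known as CD94, fell 2.06-fold. Cd69, an early activation marker, was not called (10.91 and 10.91 against 11.73 and 11.11), and Cd44, which marks antigen-experienced cells, rose 1.68-fold.

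Cell division genes rose almost without exception. All 48 tested DNA replication genes rose, with a median difference of 2.19, as did 61 of 62 mitosis genes, with a median of 3.69, against 31.2% of all genes. Smc4, a condensin subunit, was the mitosis gene not called (11.59 and 11.41 against 11.13 and 11.39). Mki67, the proliferation marker Ki-67, rose 15.4-fold from 8.36 and 8.25 to 12.23 and 12.28, and Kif11, the motor that separates spindle poles, 28.5-fold from 6.69 and 6.99 to 11.61 and 11.74. Plk1, a mitotic kinase, rose 19.3-fold and Birc5, survivin, 19.6-fold, while Tpx2, a spindle assembly factor, was switched on at 6.30 and 6.25 against 10.88 and 10.87. In the replication list Mcm10, which helps fire origins, rose 11.1-fold, Rrm1, the large subunit of ribonucleotide reductase, 8.08-fold, and Gins1, part of the replicative helicase, was switched on at 5.31 and 5.45 against 9.22 and 9.53. The median of the mitosis genes against naive cells was 3.61 with IL-2, and directly compared IL-12 was higher than IL-2 for 1 of the 62 and lower for 2 by limma. Of the replication genes 21 were higher with IL-12 and 0 lower, against 9.82% and 11% of all tested genes.

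Promoters of these lists are shown because motifs of their known regulators were found in many of them. The cell cycle homology region, searched as TTTGAA on both strands, is bound by the complex that keeps mitotic genes silent in resting cells; it occurred in 40 of 54 mitosis promoters (74.1%), against 11.7% of 8932 tested genes and 18.1% of all 27025 promoters in the table. The E2F core, searched as TTCCCGC on both strands, occurred in 16 of 40 replication promoters (40%), against 8.76% of tested genes and 4.66% of all. The stretches are from RefSeq promoters on build GRCm38.p6, 5′ to 3′ on the strand of the gene and upstream of the annotated start, with the motif in capitals; for Kif11 and Cdc6 it reads on the opposite strand. A match describes letters and not a bound site.
Kif11, chr19:37376348-37376381, plus strand: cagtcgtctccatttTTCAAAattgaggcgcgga
Ncapg, chr5:45669880-45669915, plus strand: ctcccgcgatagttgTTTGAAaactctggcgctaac
Cdk1, chr10:69352913-69352998, minus strand: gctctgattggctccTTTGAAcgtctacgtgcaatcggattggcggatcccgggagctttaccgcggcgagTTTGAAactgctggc
Ccnb2, chr9:70421701-70421736, minus strand: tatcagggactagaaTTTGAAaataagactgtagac
Cdc6, chr11:98907998-98908034, plus strand: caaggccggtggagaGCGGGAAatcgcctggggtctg
Rrm1, chr7:102441613-102441649, plus strand: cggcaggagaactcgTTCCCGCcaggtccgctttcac
Prim1, chr10:128015185-128015214, plus strand: tggaggcctgtcttgTTCCCGCcaattctc

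The genes behind these promoters rose from low or moderate levels. Ncapg, a condensin subunit, read 5.75 and 6.14 in naive and 10.47 and 10.59 in IL-12 cells, Cdk1, the master mitotic kinase, 6.98 and 7.58 and 11.67 and 11.76, and Ccnb2, one of its cyclins, 7.92 and 8.47 and 12.56 and 12.60. Cdc6, which loads the helicase, read 5.76 and 6.15 and 8.99 and 9.28, and Prim1, the primase, 7.45 and 7.97 and 10.29 and 10.52. Outside the mitosis list, TTTGAA was found in 28 of 96 promoters of genes that rose at least 8-fold (29.2%) and in 401 of 3706 promoters of genes not called (10.8%). Outside the replication list, TTCCCGC was in 11.5% of promoters of genes that rose at least 8-fold and 12% of those that fell at least 8-fold. It was in 13.7% of those that rose and 4.69% of those that fell 2-fold to 8-fold, and in 7.91% of those not called. Of 34 genes of cell cycle entry and its inhibitors 27 rose and 3 fell. E2f8, a repressor at the end of the E2F cascade, was switched on at 5.93 and 6.10 against 9.97 and 10.21, and Foxm1, an activator of mitotic genes, rose 10.02-fold. Cdkn1b, the inhibitor p27 that holds cells in quiescence, fell 1.57-fold and Mxd4, a MAX partner that opposes MYC, 3.64-fold, whereas Myc itself rose 1.42-fold.

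**Figure D3:**
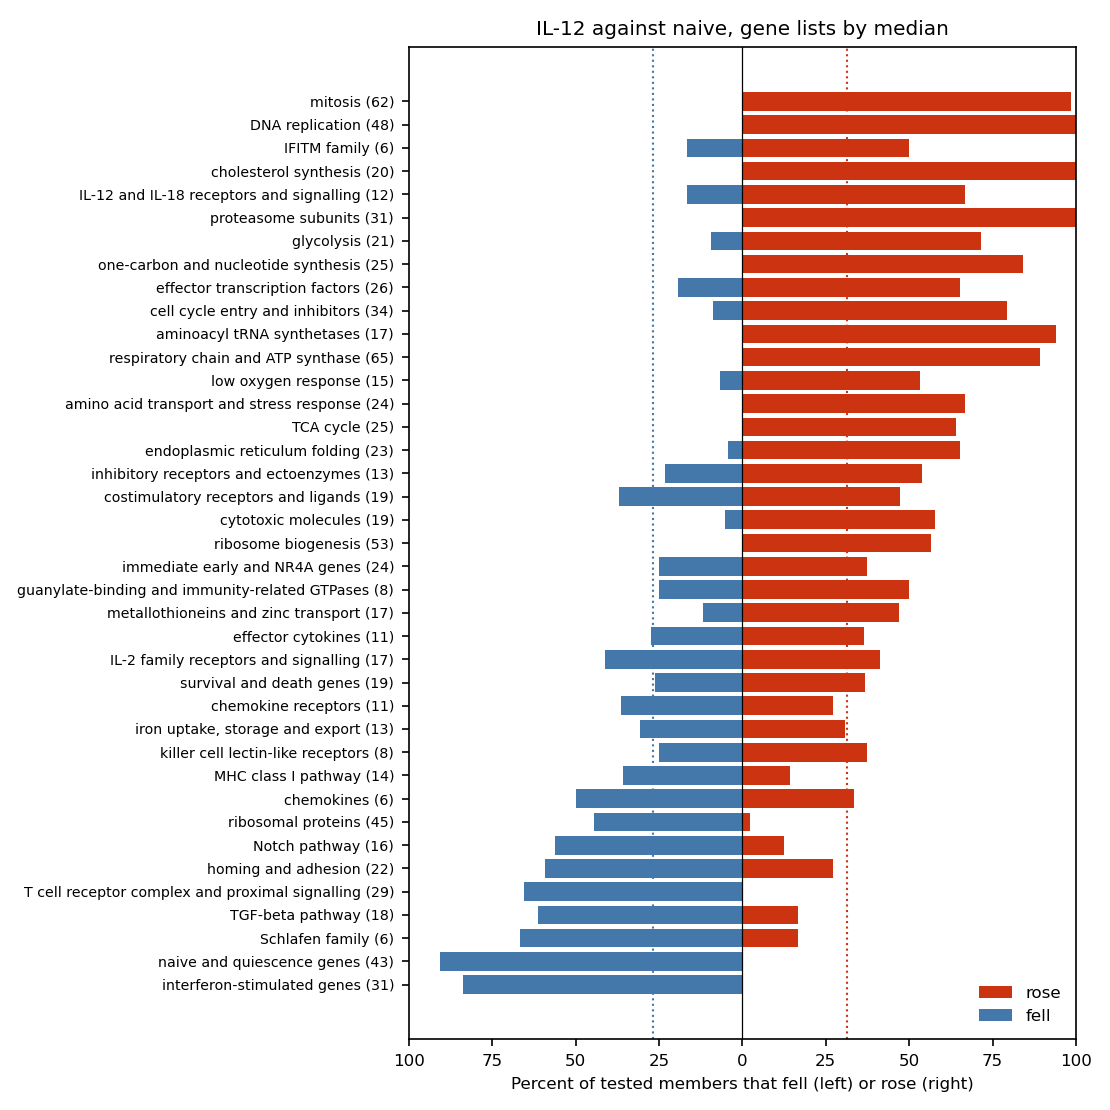
Percent of the tested members (number in brackets) of each gene list that rose (right) or fell (left) from naive to IL-12 cells, ordered by median log2 difference; dotted lines mark 31.2% and 26.7%, the shares of all tested genes. Replication, cholesterol synthesis and proteasome lists rose throughout, while naive genes and interferon-stimulated genes had no member that rose.

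Growth metabolism rose with division. All 20 tested cholesterol synthesis genes rose, with a median of 1.91: Idi1, which isomerises the isoprene unit, rose 8.19-fold from 7.94 and 8.54 to 11.30 and 11.26, and Cyp51, which demethylates lanosterol, 7.69-fold from 7.31 and 8.02 to 10.65 and 10.57. Of these 20 genes, 12 were also higher than in IL-2 cells, against 9.82% of all tested genes. In one-carbon and nucleotide synthesis 21 of 25 rose and 0 fell. Mthfd2, a mitochondrial folate enzyme, rose 3.02-fold, Shmt1 3.05-fold and Umps, which makes UMP, 2.68-fold. Of the 25, 18 were higher with IL-12 than with IL-2, against the same 9.82%. The median against naive cells was 0.95 with IL-12 and 0.34 with IL-2. Amino acid transport and stress response genes rose in 16 of 24 cases. Asns, asparagine synthetase, was switched on at 6.29 and 6.35 against 10.84 and 10.23, and Slc7a5, the large neutral amino acid transporter, rose 3.15-fold. Among aminoacyl tRNA synthetases 16 of 17 rose, led by Gars with 2.75-fold, and all 31 tested proteasome subunits rose, with a median of 0.98 and 2.92-fold for Psmd6.

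In the respiratory chain and ATP synthase 58 of 65 rose and 0 fell, with a median of 0.63, among them Cox5a with 2.86-fold. With a test against a 1.5-fold change 9 rose. The naive arrays differed in this list: the median of array 1 minus array 2 was -0.29, against -0.07 over all tested genes. That median was -0.43 for cholesterol synthesis, -0.25 for proteasome subunits and -0.21 for the TCA cycle. In the TCA cycle 16 of 25 rose, with Idh1 at 4.41-fold and Sdhd at 3.34-fold. In glycolysis 15 of 21 rose and 2 fell. Hk2, the inducible hexokinase, was switched on at 6.44 and 6.48 against 9.25 and 8.99 and exceeded IL-2 cells by 1.96 (limma adjusted p = 2.6e-05). Tpi1 rose 9.31-fold and Slc2a1, the glucose transporter GLUT1, 2.22-fold, from 10.25 and 10.57 to 11.91 and 11.20. Pdk1, which diverts pyruvate from mitochondria, fell 2.95-fold. The IL-12 arrays disagreed here: across the glycolysis list array 1 exceeded array 2 by a median of 0.46, and across 15 low oxygen genes, of which 8 rose and 1 fell, by 0.55. Bnip3, a mitophagy gene chosen after its values were seen, read 7.11 and 7.35 in naive cells but 10.78 and 8.17 in IL-12 cells, and Egln3, an oxygen-sensing hydroxylase, 7.66 and 8.10 and 11.21 and 9.86, and in both genes the IL-12 arrays lay over 1 unit apart. Ribosome biogenesis genes rose in 30 of 53 cases, and 31 of the 53 were above IL-2 cells, against 9.82% of all tested genes. Of 45 ribosomal protein genes, in contrast, 20 fell and 1 rose, by a median of -0.27, and with median centring 10 fell.

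Metallothioneins stood out among metal genes. In the list of metallothioneins and zinc transporters 8 of 17 rose and 2 fell, led by Mt2 and by Mt1, which rose 12.6-fold from 7.88 and 7.81 to 11.55 and 11.46. Slc39a8, a zinc importer, rose 3.88-fold, and Slc30a1, the zinc exporter, fell 1.84-fold. Mt2 and Mt1 were higher than in IL-2 cells by 1.01 and 0.73. Their promoters are shown for the metal response element core, searched as TGCGCNC or TGCACNC on both strands and printed in capitals. So short a core is common: 7 of 14 promoters of the list held the core (50%), against 36.6% of tested genes and 25.6% of all promoters. The stretch of Mt2 holds 3 matches, the last of them on the opposite strand, and that of Mt1 holds 1.
Mt2, chr8:94172380-94172589, plus strand: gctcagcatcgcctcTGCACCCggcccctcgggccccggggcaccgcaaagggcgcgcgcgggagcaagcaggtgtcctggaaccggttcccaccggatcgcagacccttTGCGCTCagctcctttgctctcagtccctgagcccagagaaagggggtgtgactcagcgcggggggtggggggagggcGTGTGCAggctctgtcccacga
Mt1, chr8:94179051-94179087, plus strand: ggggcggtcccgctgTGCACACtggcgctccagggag
Among iron genes 4 of 13 rose and 4 fell, near the 31.2% and 26.7% of all tested genes. Tfrc, the transferrin receptor, rose 4.92-fold. Slc40a1, the iron exporter ferroportin, was switched off, from 9.32 and 9.98 to 5.38 and 5.48, and Hmox1, haem oxygenase, fell 3.11-fold. Both are known from spleen macrophages, and the macrophage genes C1qb and Lyz2 fell beside them, from 9.03 and 10.03 to 5.81 and 5.98 and from 9.31 and 9.35 to 5.84 and 5.64; their part in these falls was not tested.

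The naive programme was lost broadly but seldom down to the off level. Of 43 tested naive and quiescence genes 39 fell and 0 rose, with a median of -1.22, against 26.7% of all genes that fell; with median centring 36 fell and 2 rose. Only 1 member, Tdrp, lay at or under the off level on both IL-12 arrays, and 41 stayed above it on both. Dapl1 fell most, from 11.90 and 12.19 to 6.71 and 6.23, with 1 of the 2 IL-12 arrays above the off level, or 47.6-fold as measured (log2 -5.57 ± 0.18, SE; limma adjusted p = 5.0e-08), while IL-2 cells kept 11.99 and 11.72. Dtx1, deltex 1, a Notch-linked ubiquitin ligase, fell 29.1-fold from 12.27 and 12.38 to 7.49 and 7.43, and IL-2 cells read 7.43 and 7.46. Il6ra, the IL-6 receptor, fell 13.2-fold from 11.29 and 11.37 to 7.71 and 7.505, with IL-2 cells at 9.999 and 10.33. Rflnb, an actin regulator, fell 13.2-fold, and Tdrp was switched off, from 10.25 and 10.51 to 6.41 and 6.39.

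Transcription factors of naive cells were among them. Bach2, which restrains effector genes, fell 4.01-fold from 11.17 and 10.53 to 9.08 and 8.62. Lef1 fell 2.26-fold, Foxo1, which sustains Il7r and Klf2, 2.002-fold, and Klf2 1.35-fold. Klf2 was not called without IL-12 replicate 2 (log2 -0.35) or with median centring (log2 -0.32). S1pr1, the receptor that lets cells leave lymph nodes, fell 1.67-fold, from 11.99 and 12.03 to 11.09 and 11.45. Id3 fell 1.92-fold from 8.01 and 8.25 to 7.19 and 7.20 while it was higher than naive under IL-2 at 8.96 and 9.33. Across the list the median against naive was -0.60 with IL-2. Directly compared by limma, 26 members were lower in IL-12 than in IL-2 cells and 4 were higher. The shares over all tested genes were 11% and 9.82%.

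**Figure D4:**
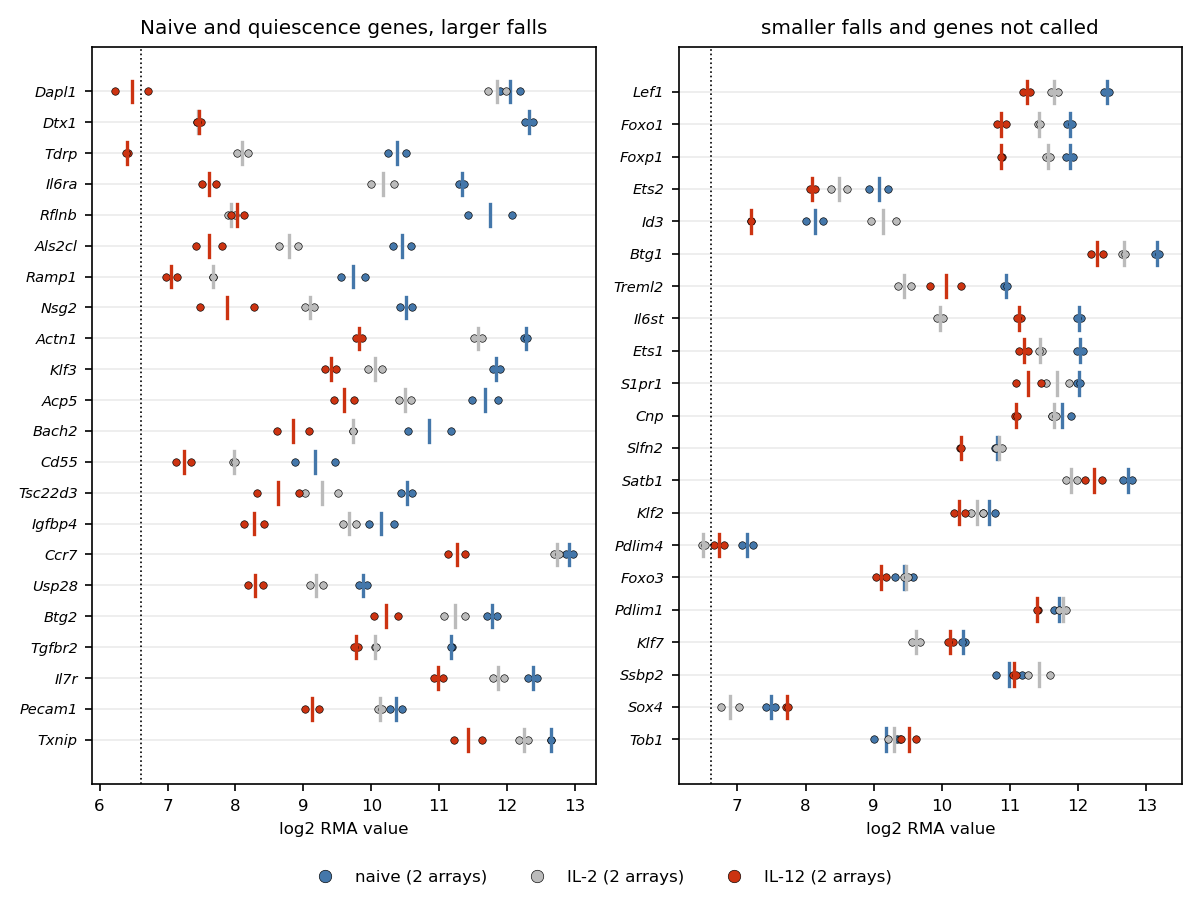
Log2 RMA value on each array (points) and group mean (bar) for the 43 tested naive and quiescence genes, ordered by the difference between IL-12 and naive cells; the dotted line is the off level of 6.61. With IL-12, 26 of the 43 genes are lower than with IL-2, such as Dapl1, while Dtx1 and Rflnb were not called between the cytokines.

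Homing receptors of the naive cell were among the largest losses. Ccr9, which steers T cells to the small intestine and thymus, had the largest fall of the 11147 tested genes, from 12.43 and 12.46 to 5.47 and 5.13, at least 57.2-fold (measured log2 -7.14 ± 0.13, SE; limma adjusted p = 1.2e-08), and IL-2 cells read 5.20 and 5.22. Itgae, integrin αE or CD103, which binds E-cadherin on epithelium and which TGF-β is known to raise, was switched off from 11.26 and 11.12 to 5.51 and 5.57, at least 23.97-fold, while IL-2 cells kept 10.43 and 10.83, at least 16.2-fold more than IL-12 cells (limma adjusted p = 6.0e-07). Ccr7 fell 3.16-fold from 12.87 and 12.97 to 11.38 and 11.14 and stayed far above the off level; IL-2 cells read 12.69 and 12.77. Of 11 tested chemokine receptors 3 rose and 4 fell, against 31.2% and 26.7% of all tested genes. Cxcr3 and Cxcr6, receptors of inflamed tissue, rose 2.14-fold and 2.499-fold, and Cxcr5, which leads into B cell follicles and which B cells also carry, was switched off from 7.80 and 7.99 to 5.61 and 6.06. Of 22 homing and adhesion genes 13 fell and 6 rose (59.1% and 27.3%, against 26.7% and 31.2% of all genes), or 8 and 6 with median centring. Pecam1 fell 2.35-fold and Icam2 2.10-fold, while Itgam, the integrin CD11b, rose from 6.19 and 6.44, under the off level, to 7.41 and 7.63, and Itgb1, integrin β1, rose 2.22-fold.

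In total 50 genes (0.449% of those tested) were switched off. Beside Ccr9, Itgae and Tdrp they included Slc6a19, a neutral amino acid transporter, at 10.68 and 10.84 against 5.76 and 5.45, and Pcsk1, a prohormone convertase, at 9.13 and 9.67 against 5.78 and 5.70. IL-2 cells kept Slc6a19 at 9.74 and 9.32 and Pcsk1 at 9.08 and 8.94, as they kept Itgae. Slc16a5, of the monocarboxylate transporter family, was off in IL-12 cells at 6.33 and 6.07 and just above it in IL-2 cells at 6.64 and 6.62. Of the 50, 31 were also at or under the off level on both IL-2 arrays. By limma 19 were lower in IL-12 than in IL-2 cells and 2 higher, against 11% and 9.82% of all tested genes. Genes picked for low values on the IL-12 arrays were bound to lean that way. Markers of B, myeloid or MHC class II presenting cells made up 11 of the 50, such as Lyz2 and Csf1r. Without naive replicate 1 the count was 22 and without naive replicate 2 it was 17, since a gene high in naive cells alone then has 1 array left above the filter on low values, which asks for 2.

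Signalling genes near the T cell receptor fell by little. Of 29 tested members 19 fell (65.5%) and 0 rose, against 26.7% and 31.2% of all tested genes. The median was -0.42, and 15 fell with median centring. Txk, a TEC family kinase, fell 4.30-fold from 11.54 and 11.24 to 9.43 and 9.14, Sit1, an adaptor, 2.75-fold, and Rasgrp1, the activator of Ras, 2.02-fold. Cd8b1 fell 1.54-fold and Cd3e 1.31-fold; Cd3e was not called without naive replicate 2 (log2 -0.26), without either IL-12 replicate (log2 -0.42 without the first and -0.35 without the second) or with median centring (log2 -0.27). In the Notch pathway 9 of 16 fell and 2 rose (56.25% and 12.5%, against the same shares). The coactivators Maml2 and Maml3 fell 2.896-fold and 2.43-fold, and Rbpj, the DNA-binding partner of Notch, rose 2.12-fold.

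In the TGF-β pathway 11 of 18 fell and 3 rose, with a median of -0.76. That is 61.1% and 16.7%, against 26.7% and 31.2% of all tested genes. Tgfbr2, the ligand-binding receptor, fell 2.63-fold from 11.18 and 11.17 to 9.81 and 9.75, Smad7, an inhibitor that TGF-β signalling itself induces, 3.82-fold from 10.49 and 10.46 to 8.70 and 8.38, and Smurf2, a ubiquitin ligase for SMAD proteins and receptors, 3.11-fold. Furin, the protease that matures TGF-β and is a known target of IL-12 and STAT4, rose 6.73-fold from 9.42 and 9.61 to 12.38 and 12.15, and IL-2 cells read 9.48 and 9.49, so that the difference between cytokines was 2.78 (limma adjusted p = 6.3e-06).

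Interferon-stimulated genes were lower in the IL-12 cells. Of 31 tested members 26 fell and 0 rose, with a median of -1.33, and 24 fell with median centring. Ifit1, which binds foreign RNA caps, was switched off from 9.94 and 10.51 to 6.48 and 6.35, and Ifit3, its partner, fell 12.5-fold from 10.27 and 10.57 to 6.78 and 6.79. Rtp4 was switched off from 9.71 and 10.02 to 5.84 and 5.76 and was at least 2.22-fold lower than in IL-2 cells, which read 7.77 and 7.75. Xaf1, a pro-apoptotic interferon target, fell 4.76-fold. Usp18, which removes ISG15 and blocks the type I interferon receptor, was not called against naive cells (10.53 and 10.90 against 10.84 and 10.03); without IL-12 replicate 1 it was, at -0.69. IL-2 cells read 6.36 and 6.29 for Usp18, under the off level, so that IL-12 was at least 14.2-fold higher than IL-2 (limma adjusted p = 2.2e-05). Against IL-2, 12 of the 31 were lower and 2 higher with IL-12, beside 11% and 9.82% of all tested genes. Many of these genes are also active in myeloid cells, whose 25 markers summed to 6854 to 8752 in naive and 2345 to 2382 in IL-12 cells on the linear scale; their part in the falls was not tested.

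Promoters of 4 of these genes are shown for the interferon-stimulated response element, the site of the STAT and IRF9 complex, searched on both strands as GAAA, any 2 bases and GAAA again and printed in capitals (as its complement in Ifit1, Ifit3 and Rsad2; the matches in Oas1a overlap). It occurred in 11 of 22 promoters of the list (50%), against 3.19% of tested genes and 3.49% of all promoters. Outside the list it was in 4 of 23 promoters of genes that fell at least 8-fold (17.4%) and in 2.56% of those not called. Genes that rose at least 8-fold held it in 9 of 138 promoters (6.52%).
Ifit1, chr19:34640770-34640828, plus strand: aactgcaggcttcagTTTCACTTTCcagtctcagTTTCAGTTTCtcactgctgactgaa
Ifit3, chr19:34583358-34583431, plus strand: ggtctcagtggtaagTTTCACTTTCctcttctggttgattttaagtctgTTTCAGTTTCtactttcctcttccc
Oas1a, chr5:120907526-120907560, minus strand: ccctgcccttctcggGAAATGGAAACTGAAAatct
Rsad2, chr12:26456548-26456587, minus strand: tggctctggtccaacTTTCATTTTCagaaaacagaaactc
Oas1a, an RNA-sensing synthetase, fell 2.55-fold from 8.43 and 8.58 to 7.28 and 7.03, and Rsad2, viperin, fell from 6.84 and 7.60 to 6.05 and 5.73, under the off level.

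Of 8 guanylate-binding and immunity-related GTPases, known as targets of interferon-γ, 4 rose and 2 fell. That is 50% and 25%, against 31.2% and 26.7% of all tested genes. Gbp3 rose 4.83-fold from 7.98 and 7.84 to 10.14 and 10.22 and Gbp5 2.55-fold, while Gbp9 fell 5.47-fold. In the IFITM family, membrane proteins that block virus entry, Ifitm1 rose 51.6-fold from 8.40 and 7.501 to 13.59 and 13.68, Ifitm2 18.6-fold and Ifitm3 19.6-fold, and Ifitm10 fell. IL-2 cells read 12.80 and 13.06 for Ifitm1, which was not called between the cytokines (difference 0.71, limma adjusted p = 0.074). The family median against naive cells was 2.12 with IL-12 and 1.86 with IL-2. Family members are alike in sequence, so their probe sets may share signal. Of 6 Schlafen genes, tied to T cell quiescence, 4 fell and 1 rose: Slfn5 was switched off from 9.88 and 10.41 to 6.11 and 5.64, Slfn8 fell 5.32-fold and Slfn3 rose 3.14-fold. Ifngr2, the signalling chain of the interferon-γ receptor, fell 18.9-fold from 10.77 and 11.02 to 6.44 and 6.87. It was also low in IL-2 cells, at 7.48 and 7.57 (IL-12 minus IL-2 -0.87, limma adjusted p = 0.0054). In the MHC class I pathway 5 of 14 fell (35.7%, against 26.7% of all tested genes) and 2 rose (14.3%, against 31.2%). Those that rose were the immunoproteasome subunits Psmb9 with 2.03-fold and Psmb8 with 1.29-fold. Psmb8 was not called without IL-12 replicate 1 (log2 0.36), without IL-12 replicate 2 (log2 0.37) or with quantile normalization (log2 0.23).

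Of 19 survival genes 7 rose and 5 fell, shares near those of all tested genes (31.2% and 26.7%). Bcl2, which sustains naive and memory cells, fell 3.24-fold from 11.82 and 11.86 to 10.37 and 9.93, and Pmaip1, the pro-apoptotic NOXA, rose 3.30-fold. Of 24 immediate early and NR4A genes 9 rose and 6 fell, again near those shares; Nr4a2 rose 3.23-fold and Nr4a3 fell 1.53-fold. Fos was not called, with IL-12 arrays at 9.69 and 7.66 against 7.95 and 7.497.

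Hairpin genes of microRNAs were on the array as well. Of 72 tested, 2 rose and 17 fell, against 31.2% and 26.7% of all tested genes. The share that fell is near the background, and the share that rose is far under it. Such a probe set reads precursor or host transcript and not the mature microRNA. The mature sequences of 3 that changed, chosen after their values were seen, are given from RefSeq on GRCm38.p6 with the seed, bases 2 to 8, in capitals, since the seed decides which targets a microRNA can bind; no seed is shared among them.
mmu-miR-342-3p: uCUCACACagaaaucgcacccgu
mmu-miR-342-5p: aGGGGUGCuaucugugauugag
mmu-miR-142a-3p: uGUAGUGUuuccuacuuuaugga
mmu-miR-142a-5p: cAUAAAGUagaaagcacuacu
mmu-miR-25-3p: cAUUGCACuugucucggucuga
mmu-miR-25-5p: aGGCGGAGacuugggcaauugc
Mir342 read 10.62 and 9.33 in naive and 6.98 and 7.29 in IL-12 cells (log2 difference -2.84 ± 0.37, SE; limma adjusted p = 0.00021). Mir142, a haematopoietic microRNA, fell by 1.43 on the log2 scale, from 10.92 and 10.02 to 8.78 and 9.30. Mir25, whose host gene Mcm7 is a replication gene, rose by 1.04, from 7.45 and 7.58 to 8.49 and 8.61. The naive arrays lay over 1 unit apart for Mir342, but neither overlapped the IL-12 arrays.

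Markers of other cells were higher on the naive arrays. All 14 tested B cell genes fell, with a median of -1.02. Cd79a, part of the B cell receptor, read 9.68 and 9.87 in naive, 7.03 and 7.04 in IL-2 and 8.63 and 8.68 in IL-12 cells. Of 9 MHC class II presentation genes 8 fell, and their sum went from 11804 to 11907 in naive to 4666 to 5392 in IL-12 cells, with IL-2 cells at 3493 to 3516; Cd74, the invariant chain of class II molecules, fell 2.23-fold. Of 17 tested myeloid genes 15 fell and 1, Itgam, rose; among all 25 measured, 19 were at or under the off level in IL-12 cells against 7 in naive cells. Csf1r, the receptor of the Csf1 product, went from 8.52 and 8.95 to 5.96 and 6.05. Summed B cell and class II signals of IL-12 cells thus lay between naive and IL-2 cells. Not every member did: H2-Oa read 8.85 and 8.22 in IL-12 cells against 10.17 and 10.23 in IL-2 cells, and Pou2af1 7.95 and 7.86 against 8.16 and 8.14. The part of B cells and class II presenting cells in the falls of Cxcr5 or Irf7, which such cells also express, was not tested. Irf7 fell from 10.46 and 10.75 to 8.02 and 7.77.

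Of 11 neutrophil genes 10 were at or under the off level on both naive arrays and 10 on both IL-12 arrays, including S100a8 and S100a9. Of 7 natural killer genes 4 were at or under the off level on both IL-12 arrays, Ncr1 among them at 5.75 and 5.89. Gzma, which rose, and Cd7 and Eomes, which fell, stayed above it. The summed signal of the 7 was 6087 to 6910 in naive and 7243 to 8064 in IL-12 cells. Foxp3, the regulatory T cell factor, was not called (7.42 and 6.96 against 7.05 and 7.28). Zbtb7b, the factor that directs CD4 lineage choice, rose 2.899-fold from 7.01 and 7.41 to 8.87 and 8.62 although Cd4 stayed under the off level. The summed signal of the 9 CD8 T cell identity genes was 49104 to 53855 in naive and 39378 to 40186 in IL-12 cells; 6 of the 9 fell, or 3 with median centring.

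**Figure D5:**
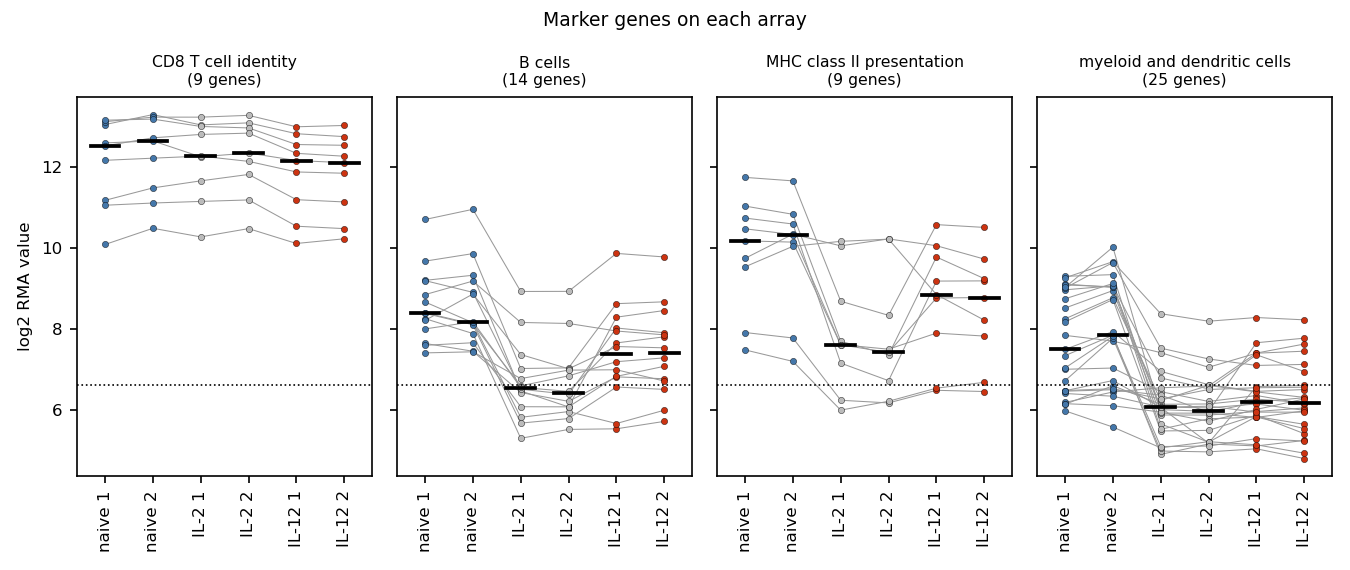
Log2 RMA value of each measured marker gene (points, joined by grey lines) on the 6 arrays, with the median as a black bar and the off level of 6.61 dotted, for CD8 T cell identity, B cells, MHC class II presentation and myeloid and dendritic cells. CD8 genes stay above 10 on all arrays, and 19 of 25 myeloid genes end at or under the off level in IL-12 cells. By their median, B cell and class II genes fall most in IL-2 cells, though members such as H2-Oa and Pou2af1 are lower in IL-12 cells.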

How the data were processed

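The deposited values are log2 expression values per probe set, made by the authors with RMA per the submitters' processing notes; the version is not given in the sources used here. The table held 35556 probe sets on 6 arrays and 0 other columns of per-sample values. Platform annotation gave 1 symbol to 21789 probe sets, several to 1621 and none to 12146, and only the first were used. Each of 19938 genes was read by its probe set of highest mean. The low-value filter kept a gene if 2 or more of the 6 values passed the table's 50th percentile, 6.83, and retained 11147 genes. limma 3.58.1 in R 4.3.3 fitted 1 mean per group on all 6 arrays, with Benjamini-Hochberg adjusted p under 0.05, 3 residual and 5.62 prior degrees of freedom; simulated data with known changes were used to test the code. With 2 arrays a group, their number limits the precision.

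A gene was switched on or off when it passed this test with both arrays of a group at or under the off level of 6.61 and both of the other at least 1 unit above it. Its fold is then a lower bound, computed against the off level. IL-12 against IL-2 is the test of a difference between the responses; IL-12 and IL-2 cells share the naive controls. The 15 largest rises and falls, 40 fixed genes (39 tested), up to 4 members of each list by adjusted p and up to 2 that moved against it, and the 10 largest switched-on and switched-off genes were named. Genes shown for a promoter, microRNAs, Bnip3, Fos, Smc4, Tgfbr2, Stat4, C1qb, Irf7, Foxp3, Esm1, Gpx8 and Cysltr2 were chosen after their values were seen. The comparison and all lists were chosen with earlier results of these data known. Promoters (250 bases before to 50 after the start, 1 per gene) and microRNAs are from RefSeq on GRCm38.p6. Of the tested genes 8932 matched a promoter, and 66 of 72 hairpins matched a microRNA. Alternatives changed the filter, probe set rule, normalization, fit, off level and arrays used.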

Additional observations from a re-analysis of the deposited data

Results flagged for a closer look

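Of the 237 named genes, 8 moved away from naive cells in opposite directions with IL-12 and with IL-2, as measured. They were picked for limma adjusted p under 0.05 against naive with each cytokine and between the cytokines. These calls are therefore the rule of choice and no further result, and genes that were not named were not searched. Log2 differences are given for IL-12 minus IL-2, then for IL-12 and IL-2 against naive. Irf8 differed by 2.43 between the cytokines (1.59 and -0.84; limma adjusted p = 8.8e-06). Gbp5 differed by 1.99 (1.35 and -0.64), Klrg1 by 1.94 (1.02 and -0.92) and Gbp7 by 1.57 (0.94 and -0.63). Mxd4 differed by -2.24 (-1.86 and 0.38), Id3 by -1.95 (-0.94 and 1.01), Klrd1 by -1.42 (-1.04 and 0.37) and Nr4a3 by -1.22 (-0.62 and 0.61). The largest limma adjusted p of the 8 for the difference between cytokines was 0.00054, for Nr4a3. In all 8 genes both IL-12 arrays lay on one side of both naive arrays and both IL-2 arrays on the other. Klrg1 read under the off level of 6.61 on both naive and both IL-2 arrays, so its fall with IL-2 cannot be read, and IL-12 cells were at least 1.55-fold above either group. The naive arrays serve both responses against naive.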

How the results depend on the processing

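Where a named gene was still tested, none changed direction against its call under the 17 alternatives run. Of the 237 named genes, 203 were still tested with the filter at the 75th percentile, 224 and 223 without naive replicate 1 and 2, and 232 without either IL-12 replicate. Usp18, not called, was at 0.12 without IL-12 replicate 2 and called at -0.69 without IL-12 replicate 1. A test against a 1.5-fold change left 1231 genes higher and 839 lower and ended the call of 41 named genes; each other alternative ended at most 8 among those still tested. The filter at the 75th percentile gave 1890 genes lower, 89 switched on and 16 switched off. With the off level at the 99th percentile of olfactory receptors (7.35) 239 were on and 85 off, at the 90th (6.29) 95 were on, and at the highest Y-linked value 3 were on and 0 off. Leaving out 1 array at a time gave 2620 to 3875 genes higher, 2373 to 2798 lower, 141 to 190 switched on and 17 to 63 switched off. With the replicate number as a block 3510 genes were higher and 2961 lower, 148 on and 50 off; deviations of same-numbered arrays correlated at 0.015 (naive and IL-2), -0.022 (naive and IL-12) and 0.15 (IL-2 and IL-12), so the numbers were not taken to pair the samples. Low signal limits genes near the off level, where a change downward cannot be read.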
